A study of Mus musculus with 24 samples.

Results

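The CCAAT/enhancer-binding proteins (C/EBPs) were examined in ATAC-seq data, an assay in which a transposase inserts adapters into accessible DNA, from sorted haematopoietic stem and progenitor cells of mouse bone marrow. The 5 members that were taken by name, Cebpa, Cebpb, Cebpd, Cebpe and Cebpg, are 5 of 21911 annotated protein-coding genes, and every ATAC-seq peak and every listed site within 60 kb of one of them was collected. Across the 11 peak lists, overlapping peaks were merged into 67 elements, and the 3 tables of sites that differed between genotypes held 70 sites near a member among 80166 in all. Elements and sites are named by the closest member and by the distance of their midpoint from its annotated transcription start, with positive distances downstream.

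C/EBPs are basic leucine zipper transcription factors that bind DNA as dimers with each other. In the myeloid lineage, C/EBPα is required for the formation of granulocyte-monocyte progenitors, C/EBPβ drives granulocyte production on infection, C/EBPδ is an inducible member of the inflammatory response, and C/EBPε is needed for the late maturation of granulocytes. C/EBPγ lacks a transactivation domain and acts as a dimer partner. The factors share many binding sites with Pu.1 (encoded by Spi1), and an enhancer about 37 kb downstream of Cebpa is known to drive that gene in myeloid progenitors.

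The 24 libraries formed 11 groups from C57BL/6 bone marrow. All mice carried 1 Cre allele (Cre +/-), including the Daxx +/+ controls (Daxx-WT), and Daxx F/F mice (Daxx-KO) lost Daxx, a chaperone of the histone variant H3.3, after Cre induction. Samples with no time in their labels comprised 2 libraries per genotype from each of GMPs (granulocyte-monocyte progenitors), CMPs (common myeloid progenitors) and LT-HSCs (long-term haematopoietic stem cells). LT-HSCs collected at 3 days post-induction (3 d.p.i.) comprised 3 Daxx-KO and 2 Daxx-WT libraries. The labels give both of these controls as Daxx +/+, but a legend in the study names a heterozygous Daxx +/F animal among them, so every LT-HSC comparison at this time may rest partly on a heterozygous control. KLS cells, a mixed gate of c-Kit+ Lin- Sca-1+ stem and multipotent progenitor cells, were collected at 3 weeks post-induction (3 w.p.i.) as 3 Daxx-KO, 2 Daxx-WT and 2 Daxx F/F Pu.1 F/F double-knockout (DKO) libraries. By the study's methods, the LT-HSC, CMP and GMP samples came from the tamoxifen-induced RosaCreERT2 line, in which Cre is active throughout the body, and KLS cells from the Mx1Cre line treated with pI:pC, an interferon inducer, which recombines in haematopoietic and some other cells. Those methods place the samples without a time label 3 weeks after tamoxifen. Their library preparation and sequencer were not those of the other samples. Animal ages are not in the labels, and the groups include no Pu.1 single knockout, so the effects of Daxx and Pu.1 in that group cannot be told apart.

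The group labels were first compared with the targeted genes and with marker promoters. At the Daxx site the Daxx-KO LT-HSC 3 d.p.i. libraries held 61.2 to 109 scaled reads against 201 and 366 in Daxx-WT, and Daxx-KO KLS libraries held 54.6 to 90.1 against 255 and 295. In DKO KLS cells, the Daxx site held 97.6 and 74.0 against 263 and 302, and a site over the last exon of Spi1 held 2.12 and 4.68 against 31.1 and 58.1. The Kit promoter carried a peak in every list, and 7 of 7 GMP markers (Mpo, Elane, Prtn3, Ctsg, Fcgr3, Csf3r, Ms4a3) did so in both GMP lists. Ly6a, which encodes Sca-1, had no promoter peak in any list. Of 10 markers of the cells removed by the lineage antibodies, 1 to 5 had a promoter peak per list, and Cd3e, Cd3g, Cd79a and Ly6g had none in any. The lists held 22156 peaks (DKO KLS) to 70455 peaks (Daxx-KO LT-HSC), and the mean depth per scanned window in the site tables was 4.21 to 16.0 reads per library.

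The 4 windows below show the distal peaks described next. The Cebpa +37 kb window is the centre of the enhancer peak and does not overlap the site farther downstream at which DKO reads were higher. Each is 300 bases of GRCm38.p6 (mm10), plus strand, centred on the summit of the Daxx-WT KLS peak (Cebpa +37 kb and Cebpa -20 kb) or of the DKO KLS peak (both Cebpb windows), and capitals mark the motif matches found.
Cebpa +37 kb (chr7:35156491-35156790): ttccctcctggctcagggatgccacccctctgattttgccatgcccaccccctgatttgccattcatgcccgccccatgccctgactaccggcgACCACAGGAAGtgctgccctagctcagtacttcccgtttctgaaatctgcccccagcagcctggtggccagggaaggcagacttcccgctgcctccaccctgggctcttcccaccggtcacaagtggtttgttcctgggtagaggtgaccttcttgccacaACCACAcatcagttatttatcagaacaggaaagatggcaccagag
Cebpa -20 kb (chr7:35098821-35099120): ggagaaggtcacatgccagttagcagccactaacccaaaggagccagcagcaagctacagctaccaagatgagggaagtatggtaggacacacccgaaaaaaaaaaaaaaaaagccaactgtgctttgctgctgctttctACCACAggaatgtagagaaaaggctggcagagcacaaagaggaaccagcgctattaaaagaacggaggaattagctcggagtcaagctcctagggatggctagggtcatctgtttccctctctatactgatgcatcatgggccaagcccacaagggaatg
Cebpb +22 kb (chr2:167710627-167710926): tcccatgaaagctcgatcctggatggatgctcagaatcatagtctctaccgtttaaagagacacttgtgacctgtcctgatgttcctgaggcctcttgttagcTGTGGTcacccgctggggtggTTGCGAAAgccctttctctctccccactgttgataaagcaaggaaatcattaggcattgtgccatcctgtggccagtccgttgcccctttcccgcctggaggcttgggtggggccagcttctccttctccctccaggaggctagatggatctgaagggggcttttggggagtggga
Cebpb -39 kb (chr2:167649319-167649618): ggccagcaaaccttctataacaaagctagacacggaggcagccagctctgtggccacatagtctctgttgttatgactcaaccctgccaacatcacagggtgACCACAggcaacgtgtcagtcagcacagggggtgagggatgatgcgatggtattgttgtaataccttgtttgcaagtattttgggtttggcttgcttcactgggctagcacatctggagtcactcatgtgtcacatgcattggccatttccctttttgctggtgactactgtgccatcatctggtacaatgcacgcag
Motifs searched on both strands were the PU.1 motif GAGGAAGT, the ETS core AGGAAG (which lies within the PU.1 motif), the C/EBP motif TTGCNNAA, the RUNX motif TGTGGT and the GATA motif AGATAA. The Cebpa +37 kb window held 2 RUNX matches at bases 95 to 100 and 256 to 261, and an ETS core at bases 100 to 105 that shares 1 base with the first of them. The Cebpb +22 kb window held 1 RUNX match and, at bases 125 to 132, the only C/EBP match, TTGCGAAA. The Cebpa -20 kb and Cebpb -39 kb windows held 1 RUNX match each. Across the 33325 windows of the same length at Daxx-WT KLS summits, 8.06% held the PU.1 motif, 48.8% the ETS core, 11.1% the C/EBP motif, 26.0% the RUNX motif and 10.4% the GATA motif. The shares at the 22156 DKO summits were 4.83%, 43.8%, 15.1%, 25.1% and 7.55%, in the same order.

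The promoters of Cebpa, Cebpd and Cebpg were accessible in every population and genotype, whereas those of Cebpb and Cebpe were not called in some lists. A peak within 1 kb of an annotated start was present in all 11 lists for these 3 of the 5 genes, beside 49.3% of all protein-coding genes. The Cebpb promoter peak was absent only from the Daxx-KO LT-HSC list without a time label. The Cebpe promoter had a peak in 7 lists: all 4 CMP and GMP lists, Daxx-WT LT-HSC 3 d.p.i., Daxx-KO KLS and DKO KLS.

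**Figure D1:**
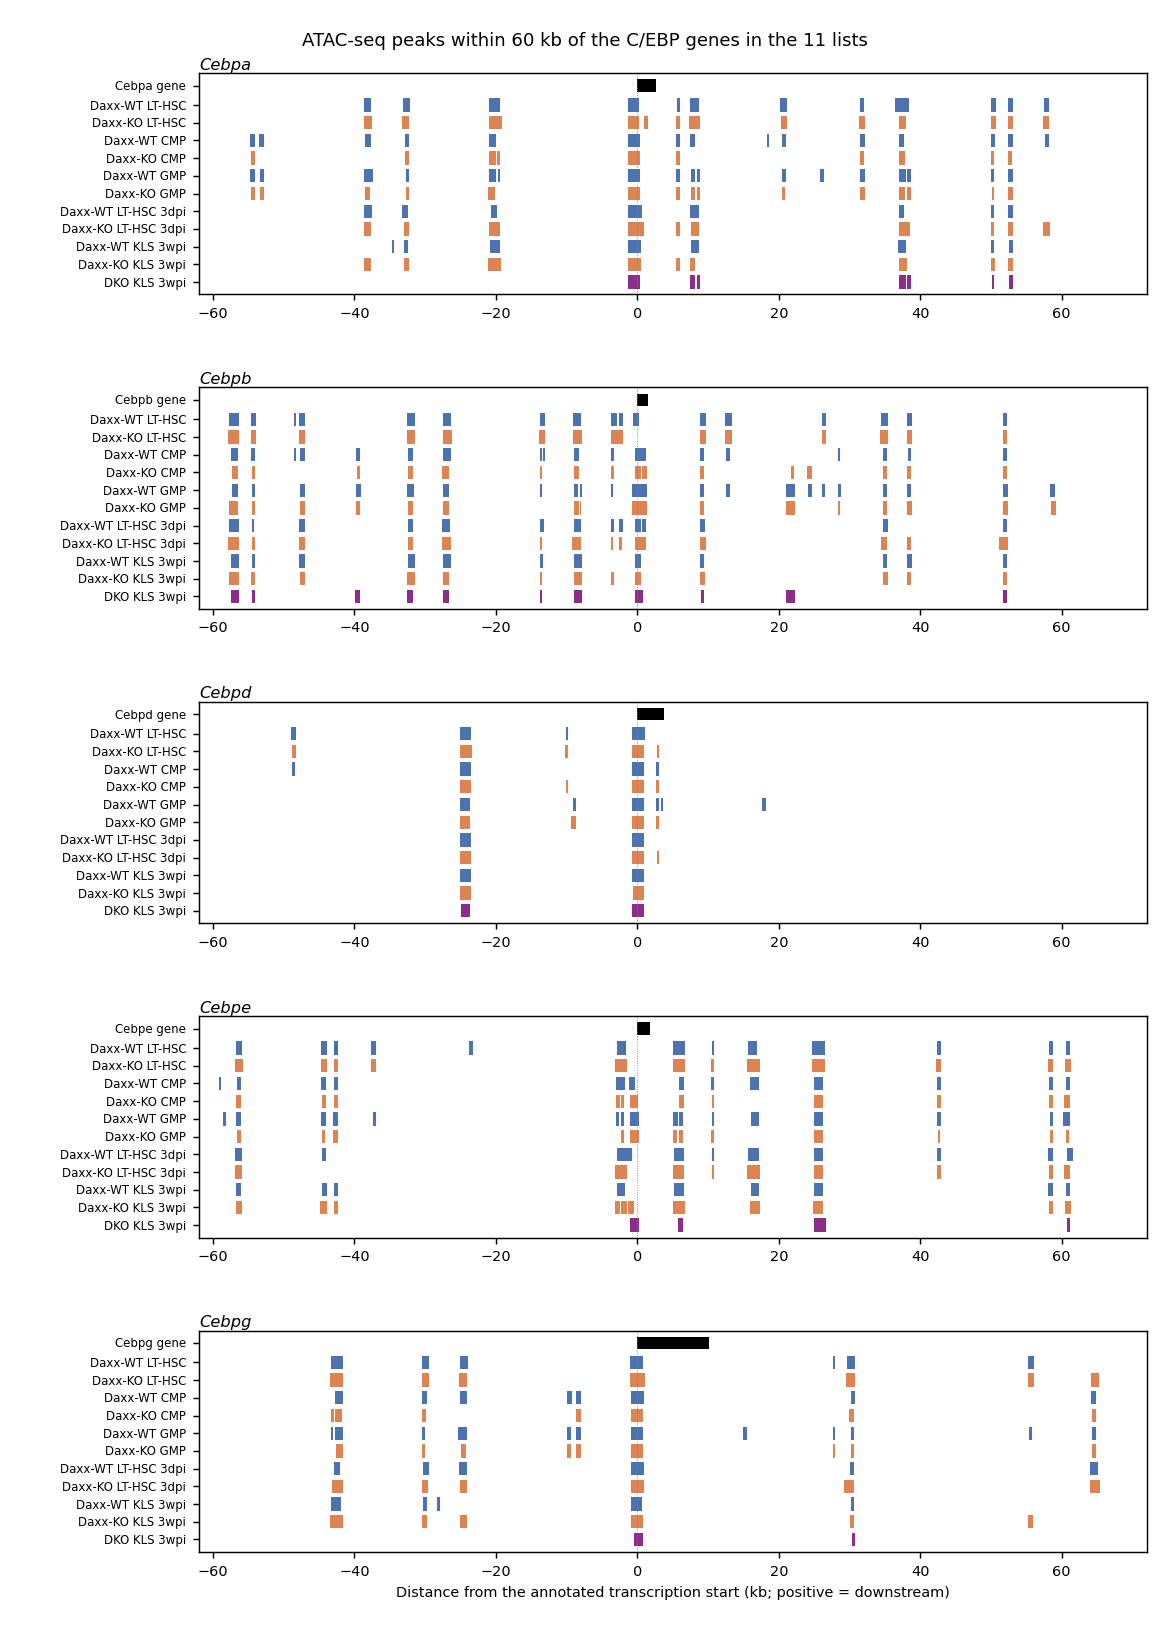
Each bar is an ATAC-seq peak, placed by its distance in kb from the transcription start of the named gene (x axis) in 1 of the 11 lists (rows: Daxx-WT blue, Daxx-KO orange, DKO purple), with the gene in black. The Cebpa +37.6 kb element is present in all rows, the Cebpa -20.2 kb element is missing from the DKO row only, and Cebpb +21.6 kb is present in the DKO row, both GMP rows and the Daxx-KO CMP row.

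Among the promoters, that of Cebpg ranked highest in strength. Fold enrichment over the local background, a column of the LT-HSC 3 d.p.i. and KLS lists only, was 7.87 (DKO KLS) to 13.4 (Daxx-KO LT-HSC) at Cebpg, at percentiles 90.0 to 96.5 of all peaks of a list. The Cebpa promoter peak had a fold enrichment of 7.61 in Daxx-WT and 8.81 in Daxx-KO LT-HSCs, and 6.64, 7.39 and 5.96 in Daxx-WT, Daxx-KO and DKO KLS cells. Its percentile was 65.7 to 67.0 in 4 of these lists and 74.2 in Daxx-KO LT-HSCs. The Cebpb and Cebpd promoters were weaker, with fold enrichments of 4.33 to 5.54 and 4.64 to 5.95. Each list is a single value per group, so these strengths carry no replicate error.

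Of the 67 elements, 19 were present in all 11 lists and 9 in 1 list. An element counts as present where a list holds any of its merged peaks, so peaks of different lists need not overlap each other. At Cebpe -1.4 kb, counted in all 11 lists, the Daxx-WT KLS and DKO peaks do not overlap. By position, 16 overlapped a promoter, 6 an exon and 29 an intron, and 16 were intergenic. Cebpb had 21 elements in its window (7 in all lists), Cebpa 17 (4), Cebpe 15 (4), Cebpg 12 (2) and Cebpd 8 (2), where the windows of Cebpa and Cebpg, which are neighbours on chromosome 7, overlap. The elements in all lists included promoters of neighbours, Tmem189 (Cebpb -27.0 kb), Mzt2 (Cebpd -24.2 kb) and Acin1 (Cebpe +60.9 kb). In the untimed lists the windows held 49 and 47 elements in Daxx-WT and Daxx-KO LT-HSCs, 51 and 41 in CMPs, and 59 and 46 in GMPs. The LT-HSC 3 d.p.i. lists held 35 and 38, and the KLS lists 33 (Daxx-WT), 36 (Daxx-KO) and 24 (DKO).

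Peaks called in 1 genotype alone were counted near the members beside all peaks of the same list. In CMPs, 14 of 53 Daxx-WT peaks near a member had no Daxx-KO counterpart (28.5% of the whole list), and 4 of 45 Daxx-KO peaks had no Daxx-WT counterpart (6.26%). In GMPs, these were 15 of 66 (27.6%) and 0 of 51 (4.55%). In LT-HSCs without a time label, 4 of 50 Daxx-WT peaks (6.78%) and 3 of 48 Daxx-KO peaks (13.9%) stood alone. At 3 d.p.i. the counts were 1 of 37 in Daxx-WT (8.68%) and 4 of 39 in Daxx-KO LT-HSCs (24.1%), and in KLS cells 1 of 33 in Daxx-WT (8.06%) and 5 of 38 in Daxx-KO (31.8%). Of the 33 Daxx-WT KLS peaks, 12 were absent from the DKO list (48.4%), and of the 27 DKO peaks, 5 were absent from the Daxx-WT list (21.4%). The counts are read against these shares, and nothing is called particular to the C/EBP genes from them. Of 8 elements in 10 lists, 5 were absent from the DKO list alone, beside 83.6% of such elements over the whole genome, the DKO list being the shortest: Cebpa -20.2 kb, Cebpb +34.9 kb, Cebpe +58.4 kb, Cebpe -56.3 kb and Cebpg -30.0 kb. In all, 5 of the 67 elements were present in 1 genotype alone in 2 populations, beside 9.03% of all elements of the genome in 2 or more. Cebpb -48.5 kb was in the Daxx-WT lists alone in LT-HSCs and CMPs, as were Cebpb +12.9 kb and Cebpe +16.5 kb in CMPs and GMPs. Conversely, Cebpd +2.9 kb was in the Daxx-KO lists alone in LT-HSCs with and without a time label. At 3 d.p.i. its peak was weak, with a fold enrichment of 2.42 at percentile 0.758 of its list. The CMP and GMP lists of both genotypes also held this element. Cebpa +5.7 kb, found in all 6 lists without a time label, was in the Daxx-KO list alone at 3 d.p.i. (fold enrichment 2.95) and in KLS cells (4.09).

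The site tables give the reads of each library at each site, divided by a constant of that library, and were compared with limma on log2(scaled reads + 1), so that low sites have their differences understated. The authors had selected these sites for differing between the same libraries, so the adjusted p-values describe the size of a difference against the spread and are no independent test, and groups that do not overlap follow from the selection. With 3 libraries against 2 an exact two-sided permutation test of a single site cannot go below p = 0.1, and with 2 against 2 not below p = 0.333. A site with more reads may be open in more of the sorted cells or more open in each, which cannot be told apart in these bulk libraries.

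In DKO KLS cells, sites near all 5 members had more reads than in Daxx-WT KLS cells, and a few elements near Cebpa, Cebpb and Cebpg had fewer. Of 54 sites, 50 were higher and 4 lower, and with adjusted p under 0.05 (limma, Benjamini-Hochberg) there were 47 higher, beside 70.9% of all listed sites, and 2 lower, beside 25.1%. A higher site lay within 60 kb of 5 of 5 members (74.1% of all protein-coding genes) and a lower site within 60 kb of 3 of 5 (62%). Most listed sites of the table were called, 36084 of 36740 higher and 12758 of 14188 lower, and counts of called sites near each member are read against these. The median log2 difference of the higher sites was 1.36, against 1.45 over all higher sites of the table. Of the 50 higher sites, 30 (60%) lay in no peak of any list, against 77.2% of all higher sites of the table. The scaling moved with the genotype: after the authors' constants, the mean of all scanned windows was still 10.6 and 15.0 reads in the DKO libraries against 7.39 and 8.19 in Daxx-WT. Scaling each library to its mean over windows instead shifted the median of all listed sites by -0.67 on the log2 scale, from 1.29 to 0.62. The members then had 49 higher and 5 lower sites, with 3 higher and 4 lower called. The part of this depth difference in the higher sites was not tested.

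**Figure D2:**
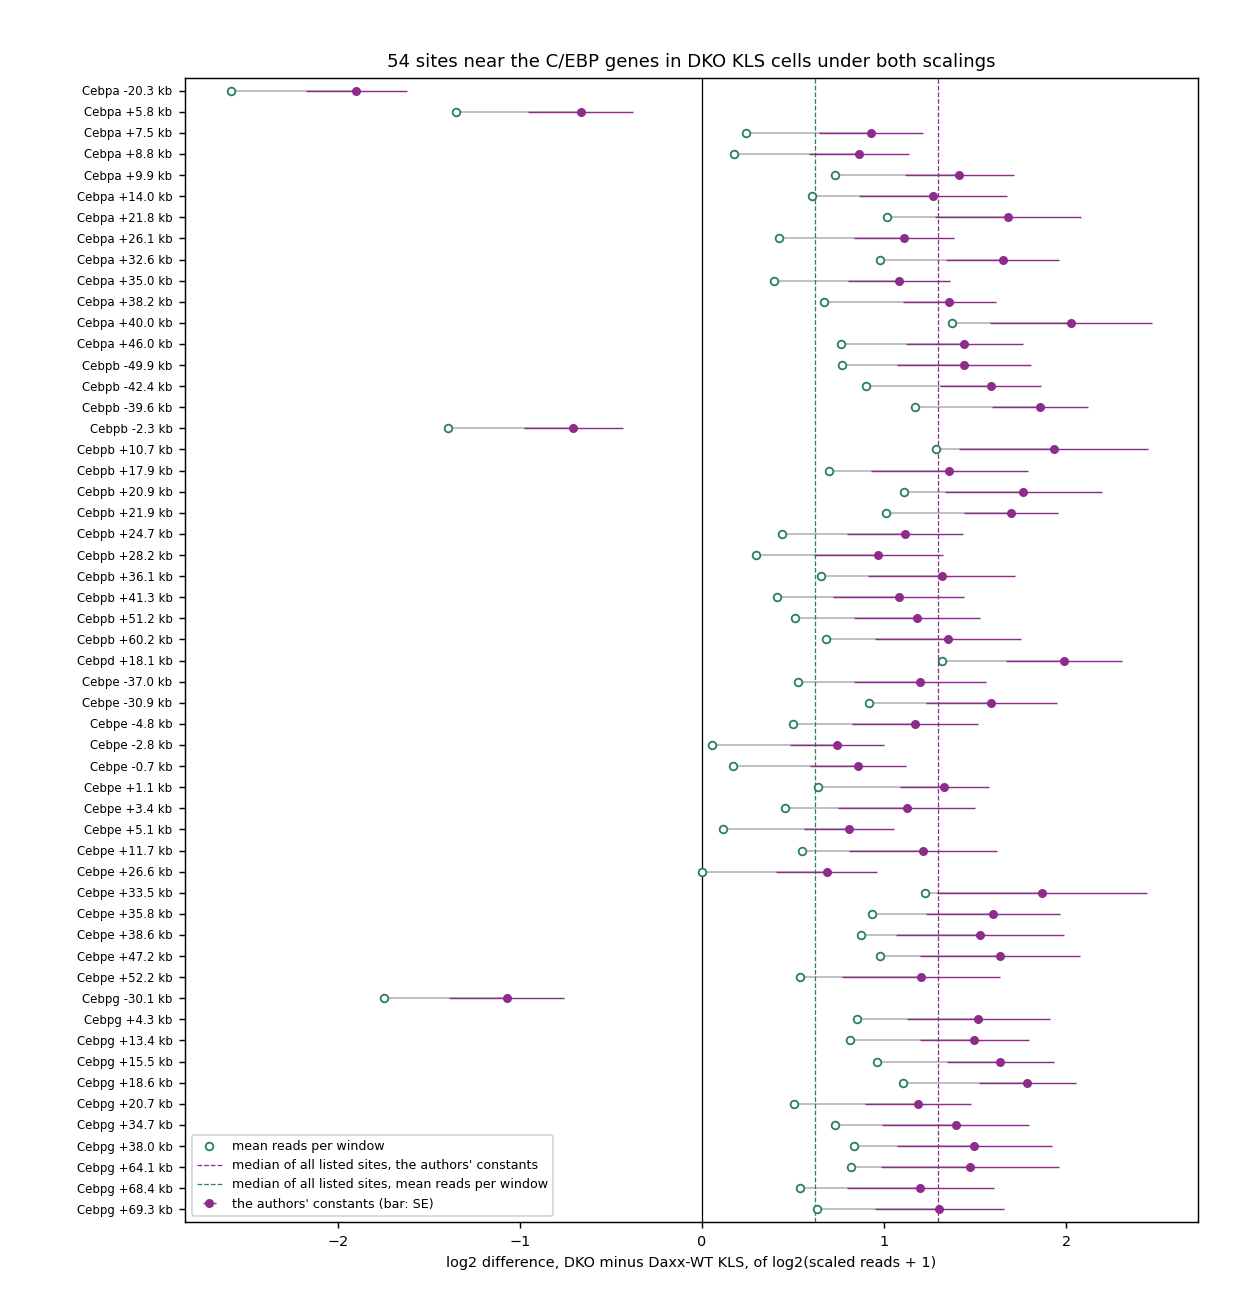
Rows are the 54 sites near C/EBP genes in the DKO table, and the x axis is the log2 difference of DKO minus Daxx-WT KLS cells with the authors' constants (purple, bars SE) and after scaling to the mean reads per window (green, open). Dashed lines mark the medians of all listed sites, 1.29 and 0.62, and Cebpe +26.6 kb is the 1 site that crosses 0, to -0.00102.

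At Cebpa, a distal element upstream of the gene lost its peak in DKO cells, and the downstream element at the known enhancer had a weaker peak but more reads at a site over its distal flank. The intergenic element around +37.6 kb was present in all 11 lists and overlaps the position of the known enhancer. Its fold enrichment was 9.72 and 10.3 in Daxx-WT and Daxx-KO LT-HSCs and 9.54 and 9.61 in Daxx-WT and Daxx-KO KLS cells, at percentiles 81.4 to 92.9. In DKO KLS cells it was 4.27, at percentile 35.2. The shape differed as well: Daxx-WT KLS cells had 1 peak of 1074 bp at chr7:35156154-35157227, whereas DKO cells had this peak (chr7:35156310-35157331) and a second of 501 bp downstream of it. A peak at that place was also present in Daxx-WT and Daxx-KO GMPs and in Daxx-WT LT-HSCs without a time label, but in neither CMP list. The site over the downstream part of this element, Cebpa +38.2 kb, held 214 and 179 scaled reads in DKO libraries against 63.0 and 91.0 in Daxx-WT. This was a log2 difference of 1.36 (SE 0.25, n = 2 and 2, limma adjusted p = 1.03e-05), and 0.67 when scaled to the window mean, where it was no longer called. The call held without any single library.

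The element at Cebpa -20.2 kb (chr7:35098205-35100080, intergenic) was present in every list except that of DKO cells. Its fold enrichment was 7.42 and 8.67 in Daxx-WT and Daxx-KO LT-HSCs and 8.20 and 8.36 in Daxx-WT and Daxx-KO KLS cells, at percentiles 64.0 to 83.5. The site there, Cebpa -20.3 kb, held 22.3 and 52.5 scaled reads in DKO libraries against 130.5 and 130.5 in Daxx-WT. The log2 difference was -1.90 (SE 0.28, limma adjusted p = 5.73e-09) and -2.58 when scaled to the window mean (adjusted p = 0.000186), and the call held without any single library. Both DKO libraries lay well below the Daxx-WT libraries, which were nearly equal. At the edge of the same element in LT-HSCs 3 d.p.i., Cebpa -19.3 kb held 16.5, 13.4 and 20.1 in Daxx-KO against 51.8 and 23.4 in Daxx-WT, where the first Daxx-WT library alone stood high (log2 difference -1.04, limma adjusted p = 0.118).

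Further along Cebpa, 11 of the 14 DKO sites in its window were higher, all 11 called, at log2 differences of 0.86 to 2.03. The largest, Cebpa +40.0 kb, held 28.6 and 59.96 against 11.5 and 7.68 (2.03, limma adjusted p = 0.000252), and 1.37 when scaled to the window mean (adjusted p = 0.00978). It lost the call in 1 of 4 fits that left out a library, and lay in no peak of any list. At Cebpa +5.8 kb, over the element that the Daxx-KO lists alone held at 3 d.p.i. and in KLS cells, DKO libraries held 44.5 and 44.0 against 72.8 and 69.1 (-0.67, adjusted p = 0.185 by limma), which passed only when scaled to the window mean (-1.35, adjusted p = 0.0229). The elements Cebpa +50.3 kb and +52.8 kb were in all lists. Their percentiles were 19.7 and 32.8 in DKO and 11.3 and 50.4 in Daxx-WT KLS cells, with fold enrichments of 3.70 and 4.18 against 3.90 and 5.70, in lists with medians of 4.93 and 5.67. Cebpa +31.7 kb was confined to the 6 lists without a time label, which also differ from the others in library preparation and kind of peak list.

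**Figure D3:**
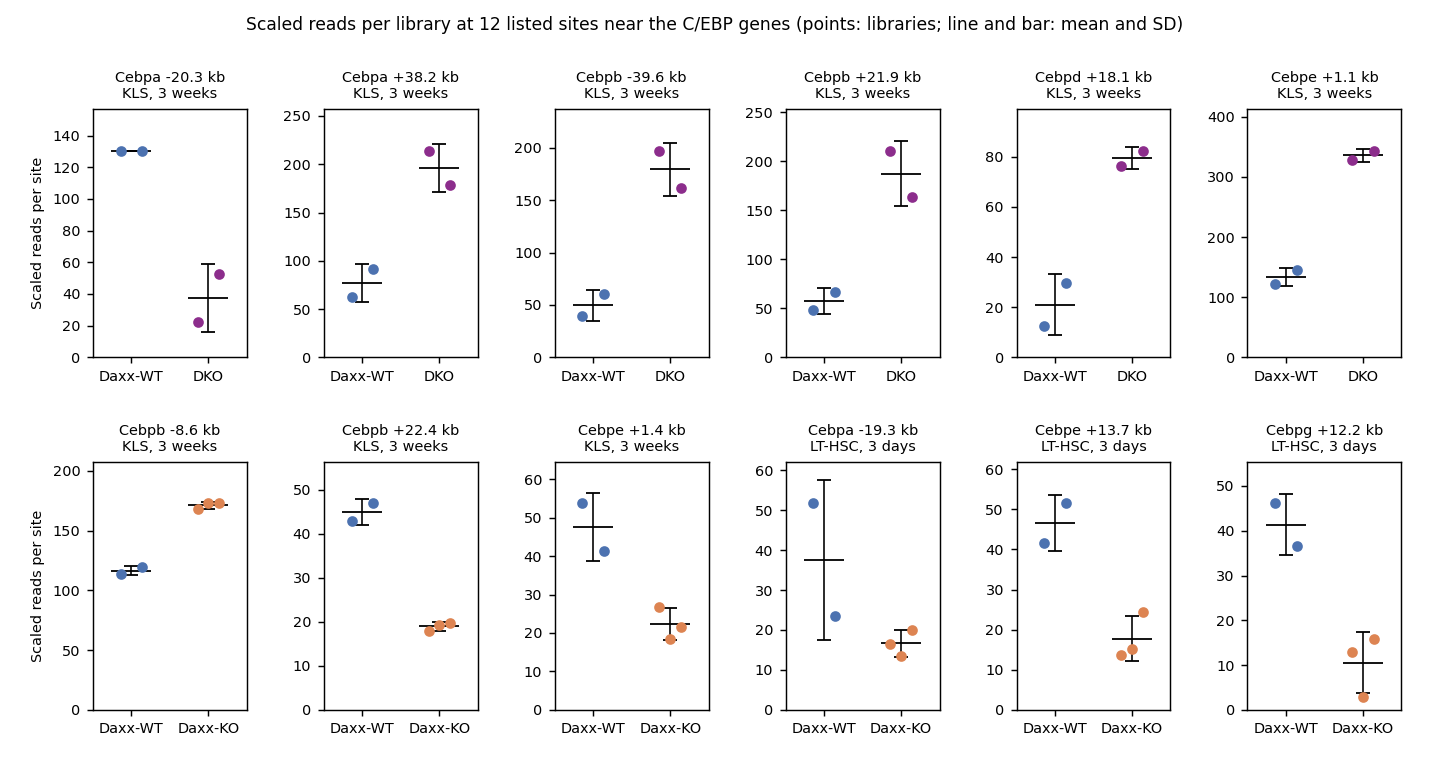
Points are the scaled reads of single libraries (y axis, reads per site after the authors' constants) at 12 sites, with the mean as a line and the SD as a bar (n = 2 Daxx-WT, 2 DKO, 3 Daxx-KO). DKO libraries lie below Daxx-WT at Cebpa -20.3 kb only and above at the other 5 DKO sites, and Daxx-KO libraries lie above Daxx-WT at Cebpb -8.6 kb only.

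Near Cebpb, DKO KLS cells had peaks at 2 elements that Daxx-WT and Daxx-KO KLS cells lacked. Cebpb -39.5 kb, in an intron of Tmem189, was present in both CMP lists, both GMP lists and the DKO list, where its fold enrichment was 5.58 (percentile 61.3). Its site, Cebpb -39.6 kb, held 197 and 161 scaled reads in DKO against 39.1 and 60.3 in Daxx-WT, a log2 difference of 1.86 (SE 0.26, limma adjusted p = 1.43e-09) and of 1.17 when scaled to the window mean, then not called. Cebpb +21.6 kb, in an intron of A530013C23Rik, was present as a peak of 1245 bp in Daxx-WT GMPs, 1244 bp in Daxx-KO GMPs, 1257 bp in DKO KLS cells and 400 bp in Daxx-KO CMPs. A site overlapping most of it, Cebpb +21.9 kb (chr2:167710201-167711500), held 211 and 164 in DKO against 47.9 and 66.9 in Daxx-WT (1.70, SE 0.26, limma adjusted p = 2.54e-08), and 1.01 when scaled to the window mean, then not called. Both calls held without any single library. Daxx-KO KLS cells had fewer reads at Cebpb +22.4 kb, a site that starts in this element and runs past its downstream end. It held 17.8, 19.3 and 19.8 against 42.9 and 47.0 in Daxx-WT (-1.20, SE 0.29), which missed the threshold (limma adjusted p = 0.0716). The 2 comparisons share the Daxx-WT libraries. In all, 13 DKO sites near Cebpb were higher (12 called, log2 differences 0.97 to 1.93) and 1 lower, Cebpb -2.3 kb, at 59.4 and 55.3 against 94.96 and 93.2 (-0.71, adjusted p = 0.0868; -1.39 and adjusted p = 0.0329 when scaled to the window mean).

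The DKO peaks absent from Daxx-WT KLS cells were 5 near the members: Cebpb -39.5 kb, Cebpb +21.6 kb, the second peak of Cebpa +37.6 kb, Cebpe -1.4 kb and Cebpe +25.6 kb. Of these, 4 overlapped a Daxx-WT GMP peak, beside 71.8% of all 4742 such DKO peaks, and 4 a Daxx-KO GMP peak (59.5%). In CMPs, 2 overlapped a Daxx-WT peak (51.9%) and 3 a Daxx-KO peak (41.5%). In LT-HSCs without a time label, 2 overlapped a Daxx-WT peak (32.2%) and 1 a Daxx-KO peak (36.7%). A Daxx-KO KLS peak overlapped 1 (28.8%). Among the 7 GMP markers, the DKO list held promoter peaks at Prtn3, Ctsg, Fcgr3 and Csf3r, and the Daxx-WT KLS list at Mpo, Prtn3, Fcgr3 and Csf3r. The stem and progenitor markers with a DKO promoter peak were 4 of 8 (Kit, Mecom, Hlf and Flt3), and of the 10 lineage markers only Itgax had one. The part of cell composition in these results was not tested.

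Cebpd and Cebpe also had more reads in DKO cells at sites over or near the genes. Cebpe +1.1 kb (chr14:54709701-54712400), which covers the gene and its start, held 329 and 344 in DKO against 122 and 145 in Daxx-WT (1.33, SE 0.24, limma adjusted p = 7.00e-06), and 0.64 when scaled to the window mean, then not called. In DKO cells the promoter peak lay at chr14:54711882-54713166, close to its place in Daxx-WT GMPs (chr14:54711884-54713274), whereas the Daxx-WT KLS peak of this element lay upstream at chr14:54713942-54715018. The DKO peak was weak, with a fold enrichment of 2.97 at percentile 3.15 of the DKO list. Daxx-KO KLS cells also had a weak peak that overlapped it and that Daxx-WT KLS cells lacked. This peak lay at chr14:54712696-54713482, with a fold enrichment of 3.61 at percentile 5.70 of the Daxx-KO list. All 15 DKO sites near Cebpe were higher with the authors' constants, 13 of them called, and Cebpe +26.6 kb at the Acin1 promoter (91.2 and 85.3 against 54.1 and 54.8) fell to a difference of -0.00102 when scaled to the window mean. Cebpd had 1 listed site in the 3 tables, Cebpd +18.1 kb in an intron of Spidr, with 76.4 and 82.4 in DKO against 12.4 and 29.6 in Daxx-WT. Its log2 difference of 1.99 (SE 0.32, limma adjusted p = 1.26e-07) was 1.32 when scaled to the window mean (adjusted p = 0.0230). Only the Daxx-WT GMP list held a peak at this place.

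Around Cebpg, 10 DKO sites were higher, all called, with log2 differences of 1.19 to 1.79, and they lay in Pepd and in Cebpg itself. The largest, Cebpg +18.6 kb, held 173 and 137 against 33.7 and 57.0 (limma adjusted p = 1.40e-08) and lay in no peak of any list. It was 1.10 when scaled to the window mean, where none of the 10 sites was called. The 2 lower sites were Cebpa -20.3 kb, which is in both windows, and Cebpg -30.1 kb at the promoter of Gm35611, a peak absent from the DKO list alone. The latter held 30.8 and 24.4 against 50.6 and 68.0 (-1.07, limma adjusted p = 0.00983), and its call was lost in 3 of 4 fits that left out a library, down to -0.86 (adjusted p = 0.508) without the second Daxx-WT library. It was -1.75 (adjusted p = 0.00135) when scaled to the window mean.

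In Daxx-KO KLS cells, 7 sites near the members differed in the table, 1 higher and 6 lower. None was called (limma, adjusted p under 0.05), beside calls at 2.26% (higher) and 1.16% (lower) of all sites of this table. All 7 had an unadjusted p under 0.05, as did 3268 higher and 13999 lower of the 17311 listed sites, which the selection of the sites fixes. A higher site lay near 1 of 5 members (23.7% of all protein-coding genes) and a lower site near 3 of 5 (65%). The higher site, Cebpb -8.6 kb, held 168, 173 and 173 scaled reads in Daxx-KO against 114 and 119 in Daxx-WT (0.55, SE 0.21, limma adjusted p = 0.294), and 1.04 when scaled to the window mean. The peak there was present in all 11 lists, with a fold enrichment of 4.40 in Daxx-WT KLS cells, 7.08 in Daxx-KO KLS cells and 3.80 in DKO KLS cells, against 9.99 and 10.8 in Daxx-WT and Daxx-KO LT-HSCs. Over Cebpe, the site at +1.4 kb held 26.7, 18.4 and 21.6 in Daxx-KO against 53.8 and 41.3 (-1.07, limma adjusted p = 0.0944). At the Cebpb start, Cebpb -1.1 kb held 29.0, 15.8 and 30.1 against 50.2 and 48.1 (-1.005, limma adjusted p = 0.120). The remaining lower sites, Cebpb +16.7 kb, Cebpe +9.8 kb and Cebpg +31.3 kb, had log2 differences of -1.18, -1.60 and -1.06. The mean of all windows was 3.98 to 9.03 scaled reads in Daxx-KO and 7.60 to 8.61 in Daxx-WT KLS libraries, and its part in these lower sites was not tested.

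**Figure D4:**
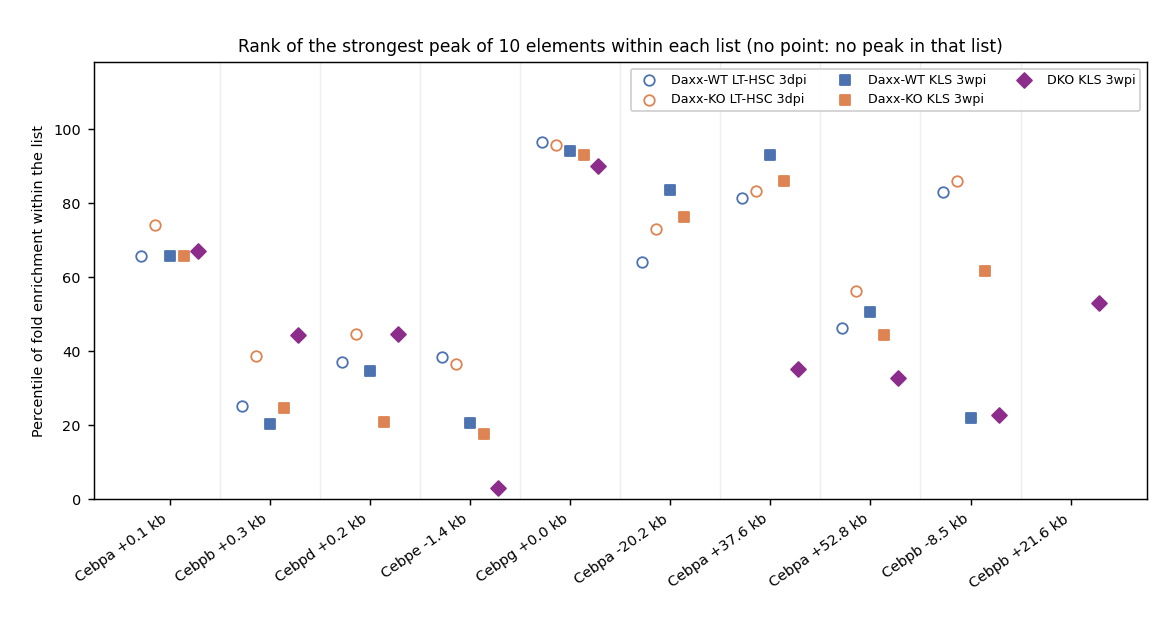
For 10 elements (x axis), points give the percentile of the fold enrichment of the strongest peak within its own list (y axis), for LT-HSC 3 d.p.i. (open circles) and KLS lists (squares, DKO diamonds), with no point where the list has no peak. In the DKO list Cebpa +37.6 kb falls to percentile 35.2 and Cebpa -20.2 kb has no peak, while the Cebpg promoter stays at 90.0 or above in all 5 lists.

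In Daxx-KO LT-HSCs at 3 d.p.i., all 9 sites near members had fewer reads than in Daxx-WT, and 8 of them (88.9%) lay in no peak of any list, against 75.1% of all lower sites of the table. With an adjusted p under 0.05 (limma), 4 were lower, beside 25.8% of all sites in the table, and 0 of the 9 were higher, beside 19.2%. All 9 had an unadjusted p under 0.05, as did 8448 of the 8451 lower sites of the table, which the selection fixes. A lower site lay near 4 of 5 members (47.7% of all protein-coding genes; Cebpd had none) and a higher site near 0 of 5 (28.4%). At Cebpg +12.2 kb (chr7:35043951-35044850, at Pepd), Daxx-KO libraries held 12.9, 2.86 and 15.8 against 46.2 and 36.6 in Daxx-WT (-2.12, SE 0.45, limma adjusted p = 0.00713). At Cebpe +13.7 kb (chr14:54698051-54698900, at Gm29776) the values were 13.8, 15.3 and 24.3 against 41.7 and 51.6 (-1.38, SE 0.30, limma adjusted p = 0.00755). Near Cebpb, the site at -29.4 kb held 54.1, 53.5 and 64.4 against 95.8 and 105.0 (-0.80, adjusted p = 0.0276 by limma) and that at +49.9 kb held 12.9, 11.5 and 23.2 against 34.9 and 42.2 (-1.29, limma adjusted p = 0.0289). Without either of the Daxx-WT libraries none of the 4 calls held, and none was called when scaled to the window mean. The other 5 sites had log2 differences of -1.18 to -0.81. The mean of all windows was 4.01 to 10.1 scaled reads in Daxx-KO and 7.41 to 10.8 in Daxx-WT libraries, and its part in the lower sites was not tested.

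Other genes of the C/EBP pathway, a list of 24 factors, co-regulators and granule or receptor targets, were examined over the gene and its start. In DKO KLS cells, 15 of 24 genes had a higher site and 10 a lower one, beside 41.2% and 26% of all protein-coding genes, and in each of these genes at least 1 such site was called (limma). Csf1r, Elane, Il6ra, Irf8, Myb, Runx1 and Spi1 are in both counts. Of the granule protein genes in the list, Camp, Ctsg, Elane, Lcn2, Mpo and Ngp had a called higher site, Prtn3 and Ltf had no listed site, and Elane also had a called lower one (67.9 and 70.3 against 121 and 114, -0.76, limma adjusted p = 0.0392). Ngp held 685 and 622 against 130 and 215 (1.96, limma adjusted p = 4.44e-12), and Ctsg held 292 and 208 against 46.2 and 101 (1.83, adjusted p = 4.08e-10 by limma). These differences were 1.26 and 1.15 when scaled to the window mean, where the median of all listed sites was 0.62. The other called higher sites of the granule protein genes were lower on that scale. They stood at 0.48 and 0.70 (Ctsg), 0.89 (Lcn2), 0.48 and 0.81 (Camp), 0.42 (Elane) and 0.33 to 0.72 (Mpo). The paralogues Trib1 and Trib2, whose products promote the degradation of C/EBPα, differed in direction with the authors' constants. Trib2 held 210.0 and 147 against 414 and 305 (-1.01, limma adjusted p = 0.00107). Trib1 held 141 and 103 against 63.0 and 74.6 (0.81, limma adjusted p = 0.0237), and 0.12 when scaled to the window mean. The other Trib1 site held 289 and 222 against 165 and 165 (0.62, limma adjusted p = 0.101), and -0.07 when scaled to the window mean. In Daxx-KO KLS cells, 10 of 24 genes had a lower site (27.7% of all genes) and 2 a higher one (6.93%), and 1 was called, Camp, which encodes a granule antimicrobial peptide, with 39.0, 15.8 and 27.3 against 62.9 and 104 (-1.62, limma adjusted p = 0.0313). Without Daxx-KO library 1 or library 3, 0 of all listed sites in this comparison were called lower, Camp included. In Daxx-KO LT-HSCs at 3 d.p.i., 4 of 24 had a lower site (17.2% of all genes; Cebpz, Il6ra and Runx1 called) and 3 a higher one (8.33%; Csf2ra and Runx1 called).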

How the data were processed

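ATAC-seq libraries from sorted bone marrow cells were grouped by the labels. The authors deposited 11 peak lists (mm10), 1 per group: positions only for the 6 groups without a time label, and for the other 5 groups lists reproducible between libraries, with a reproducibility score and a linear ratio, the fold enrichment over background. They also deposited 3 site tables with scaled reads, a signal that is the reads of each library over its constant; columns with the authors' own fold changes, p-values and directions were not used. CASAVA 1.8.4, cutadapt 1.13, STAR 2.5.3 and bedtools are named in the submitters' processing notes, and read filters are not given in the sources used here.

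Distances were taken from GENCODE M 21 starts, and peaks sharing 1 bp were merged. Sites were fitted over each whole table with limma 3.58.1 (pseudocount 1, R 4.3.3), with p-values adjusted for all windows tested by the authors and a threshold of 0.05, and the fits were tested on simulated data. Every element and site near the members was eligible to be named. The members, lists and tests were chosen with earlier results of these data known. Replicates are separately labelled libraries, so p-values measure only the spread between them. Promoter sequences (RefSeq, GRCm38.p6) matched 3 of 5 members. The sequence of 1 window near Cebpa is not reported here. No per-sample column was left unused.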

Additional observations from a re-analysis of the deposited data

How the results depend on the processing

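At 30 kb, the 47 higher DKO calls became 27. Among sites that overlap a peak they became 10, scaled to the window mean 3, and leaving out 1 library 14 to 33; the 2 lower DKO calls became 4 when scaled to the window mean and 1 to 2 without 1 library. Over the whole DKO table the higher calls went from 36084 to 5773 when scaled to the window mean. Cebpe +26.6 kb reversed to -0.00102 under that scaling. The 4 lower LT-HSC calls became 0 at sites overlapping a peak, 8 with a pseudocount of 4, 0 when scaled to the window mean, and 0 to 4 without 1 library. The 0 lower Daxx-KO KLS calls became 4 with a pseudocount of 4. Members with a site overlapping a peak were 2 instead of 4 (LT-HSC, lower), 0 instead of 3 (Daxx-KO KLS, lower) and 3 instead of 5 (DKO, higher). The cause of these changes was not tested, beyond the fewer sites or libraries of the alternative itself. A fit that leaves an arm with 1 library assumes that it varies like the others.

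Peaks in 1 list alone changed with the distance and the score. At 30 kb they were 9 in Daxx-WT CMPs, 2 in Daxx-KO and 0 in Daxx-WT LT-HSCs 3 d.p.i., 3 in DKO, and 5 in Daxx-WT KLS against DKO. With a score of at least 600 they were 1 and 0 in Daxx-KO and Daxx-WT LT-HSCs 3 d.p.i., 3 and 0 in Daxx-KO and Daxx-WT KLS, 3 in DKO and 7 in Daxx-WT against DKO. With 50% coverage required, Daxx-WT LT-HSCs 3 d.p.i. had 3.

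A replicate block in both KLS comparisons used only libraries numbered 1 and 2, so it left out Daxx-KO library 3. It left the members' calls at 0 and 0 (Daxx-KO) and at 47 and 2 (DKO). The difference between libraries 1 and 2 of the knockout was correlated over sites with that of Daxx-WT, at 0.035 and -0.0031. The labels give same-numbered libraries no link other than the number. Over all sites the Daxx-KO KLS calls were 392 higher and 201 lower with all libraries. They were 0 and 0 without Daxx-KO library 1, 2 and 2 without library 2, and 0 and 0 without library 3. When the libraries that remained without library 3 were blocked, they were 757 and 672. The LT-HSC table could not be blocked because its columns carry no replicate numbers. The planned count model (edgeR) was not run, since the tables hold scaled values joined in 1 cell. Depth (4.21 to 16.0 reads per window) limits the sites with few reads, and the lists carry no error between libraries.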

Other observations

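Over the 11 lists, the share of peak width within the window of a gene was compared across 15991 genes as a description of likeness, with Pearson's r over the 11 lists, several of which come from the same cell population. The patterns most like Cebpa were those of Zcrb1 (r = 0.948), Ryr1 (0.938) and Gmnn (0.935). Nearest to Cebpb were Ccdc116 (0.989), Ydjc (0.987) and Igip (0.985). Nearest to Cebpe was Tmem14c (0.964), and to Cebpg Cpeb3 (0.941). For Cebpd the nearest was AF366264 (0.991).

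Per Mb of peak width in the list, the Cebpa, Cebpb and Cebpd windows held 284, 474 and 164 bp in DKO against 250, 301 and 107 in Daxx-WT KLS cells. The Cebpe and Cebpg windows held 207 and 88.1 against 260 and 146. The median over all protein-coding genes was 128 against 127. The DKO list held fewer peaks (22156 against 33325), so a peak of unchanged width takes a larger share of it. These are single values per list.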
